A study of Mus musculus with 32 samples.

Results

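Chemokines and chemokine receptors were taken as all genes of the liver RNA-seq tables whose symbol starts with Ccl, Cxcl, Ccr or Cxcr followed by a digit, together with Cx3cl1, Cx3cr1, Xcl1 and Xcr1. The rule found 61 genes among 41585 entries, pseudogene entries included. Of these 61 genes, 8 had 0 counts in all 32 libraries, 31 reached 1 CPM (counts scaled to a library of 1000000) in at least 4 libraries of females and 29 did so in males. The genes below that limit were not tested within a sex. Just inside the limit were Xcr1 in females, which reached 1 CPM in 5 libraries, and Ccl7 and Cxcl13 in males, in 4 libraries each. Just outside it were Ccr9 in females and Cxcr2 and Cxcr5 in males, in 3 libraries each.

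Livers came from mice of 2 genotypes, each on 2 diets and of both sexes, which gave 8 groups of 4 libraries. WT mice were C57BL/6J animals bought from The Jackson Laboratory, and Cyp2b-null mice were a line on the same background in which CRISPR/Cas9 had removed Cyp2b9, Cyp2b10 and Cyp2b13, the cytochrome P450 genes of this subfamily that the liver mainly expresses. Genotype and origin of the animals therefore cannot be told apart. From 10 weeks of age the mice were kept for 8 weeks on normal chow (ND), of which fat made up 6.2%, or on CDAHFD, a high-fat diet without choline in which L-amino acids take the place of protein, with 0.1% methionine and with fat at 62%. The methods do not say whether the fat percentages are of weight or of energy, so the 2 diets cannot be compared by them. The groups are called ND-fed WT females, ND-fed Cyp2b-null females, CDAHFD-fed WT females and CDAHFD-fed Cyp2b-null females, and likewise for males. Fat, choline, methionine and the form of protein differed at once and cannot be told apart. CDAHFD is used as a model of nonalcoholic steatohepatitis, the inflamed and fibrotic form of fatty liver disease.

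Chemokines are small secreted proteins that steer leukocytes along concentration gradients, and they are named CC, CXC, CX3C or XC after the spacing of their first cysteines. They act on G protein-coupled receptors of the same name on leukocytes and other cells, and many ligands share receptors. In the liver they are made by hepatocytes, Kupffer cells, stellate cells and endothelium, and the pair of CCL2 and its receptor CCR2 is known for drawing blood monocytes into the injured organ.

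Library totals ran from 2906411 to 10166959 counts, and members near 1 CPM rest on a few counts per library. Counts of Cyp2b13 were 0 or 1 in every Cyp2b-null female library against 470 to 2351 in WT female libraries, which goes with the labels. Males had 0 to 6 counts of Cyp2b13, so that their labels were read against Cyp2b10 on ND (33 to 97 counts in WT, 1 to 9 in Cyp2b-null) and Cyp2b9 on CDAHFD (118 to 364 in WT, 2 to 7 in Cyp2b-null). Albumin, the main protein of hepatocytes, had at least 300920 counts in every library. The CDAHFD-fed Cyp2b-null female replicate 3 had the lowest mean correlation with its own group over genes (0.952, against 0.961 or more elsewhere). The labels give 4 libraries per group without saying whether they came from mice of separate cages or litters, so that p-values measure the spread between these libraries.

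CDAHFD raised most of the chemokine genes that could be tested, in both genotypes and sexes. In WT females 20 of 31 members were called at an adjusted p under 0.05, 18 higher and 2 lower, where 22.3% of all 14826 genes tested were called (12.9% higher and 9.39% lower). In Cyp2b-null females 24 of 31 members were called, 22 higher and 2 lower, with 28.3% of all genes called (15.6% higher and 12.6% lower). In WT males 23 of 29 members were called, 20 higher and 3 lower, with 31.5% of all 14651 genes called (17.5% higher and 14% lower). In Cyp2b-null males 22 of 29 members were called, 20 higher and 2 lower, with 35.8% of all genes called (19.7% higher and 16.1% lower). The libraries of the diets did not overlap for 20, 24, 21 and 21 members in the same order, and for 24.5%, 28.9%, 27.4% and 35.5% of all genes. The median log2 fold change of the members tested was 1.66 and 1.82 in WT and Cyp2b-null females and 2.18 and 2.24 in WT and Cyp2b-null males. Over all genes tested the same medians were 0.00, 0.03, -0.02 and -0.00. Setting the members without a count in the ND-fed group to their fold over a floor of 3 counts left the members' medians as they were. These members stayed above the medians, so that the medians could not move. Of all genes called, 57.9%, 55.4%, 55.5% and 55.1% were higher in the same order of comparisons, and 89%, 86%, 90.1% and 86.5% with scaling by library size alone, which called 21, 23, 22 and 21 members higher and 1, 2, 1 and 2 lower.

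These counts describe the members and are no test of the family, because 14 of the 31 members in females and 18 of the 29 in males reached 1 CPM in fewer than 4 ND-fed libraries and entered through the CDAHFD-fed ones. Cxcl13 in males reached it in 3 ND-fed libraries and 1 CDAHFD-fed library, so that it passed on neither diet alone. Among the 17 members that passed on the ND-fed libraries of females alone, 9 were called higher and 2 lower in WT and 11 higher and 2 lower in Cyp2b-null mice. Among the 10 such members in males, 6 were called higher in either genotype, 3 lower in WT and 2 lower in Cyp2b-null mice. Calls among all genes that passed on the ND-fed libraries alone were not counted, so these numbers too describe the members only. In whole liver a change in the number of cells of a type and a change in the RNA per cell cannot be told apart.

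Of the 29 members tested in all 4 diet comparisons, 18 were called higher in each, among them Ccl2, Ccl3, Ccl4, Ccl5, Ccl6, Ccl7, Ccl22, Ccr1, Ccr2, Cx3cl1, Cx3cr1, Cxcl1, Cxcl2, Cxcl10, Cxcl14, Cxcl16 and Cxcr4. Cxcl12 was called lower in each. How many of all genes were called in the same direction in all 4 was not counted, so these numbers describe the members only. Ccl2, Ccl3, Ccl4, Ccl7, Ccl22, Ccr1, Cx3cl1, Cx3cr1 and Cxcl2 entered the tests through the CDAHFD-fed libraries in both sexes. Ccl24, an eosinophil attractant, and Cxcr3 and Cxcr6, chemokine receptors of T cells, were called in none of the 4, although Ccl24 passed in WT males without the ND-fed replicate 3 (adjusted p = 0.0162). The remaining 7 (Ccl9, Ccl25, Ccl27a, Ccr7, Cxcl9, Cxcl13 and Xcr1) were called in some comparisons, and the tests of the difference between genotypes and sexes follow the values.

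**Figure D1:**
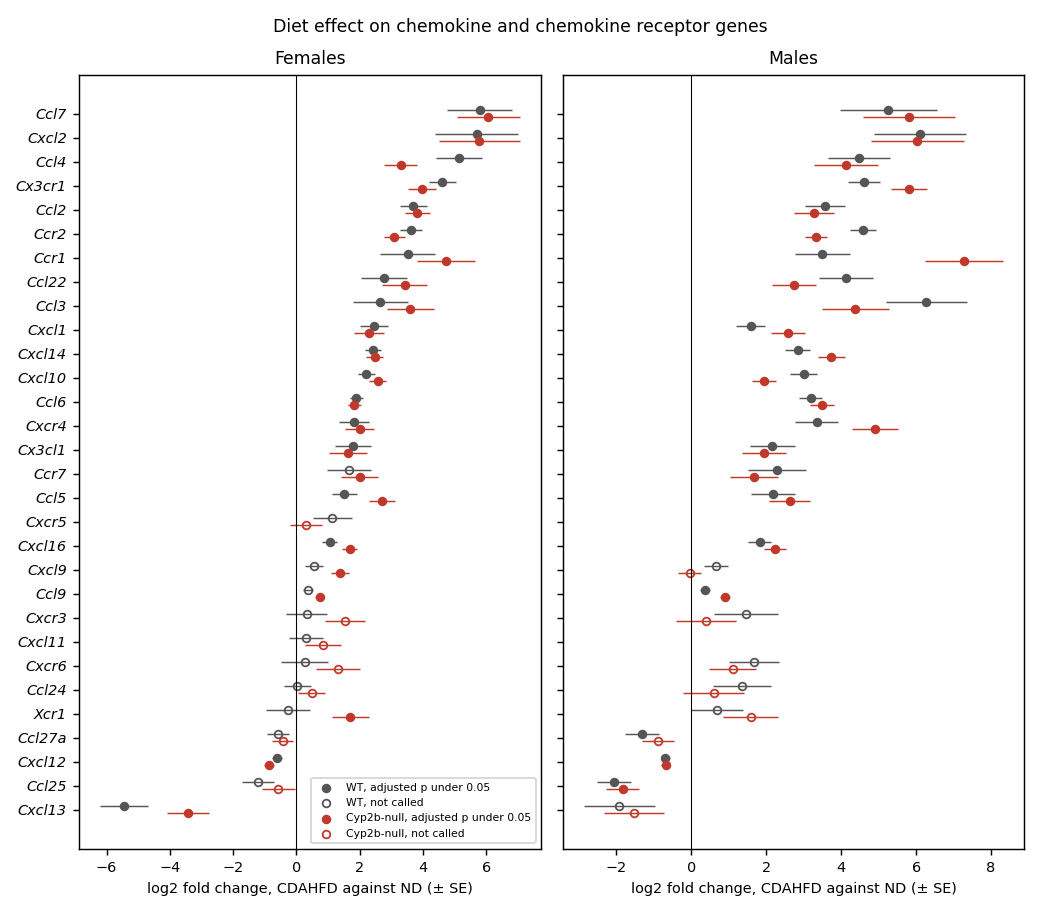
Log2 fold change of CDAHFD against ND for the members tested except 1 (x axis, ± SE), with females on the left, males on the right, WT in grey and Cyp2b-null in red, and filled points for an adjusted p under 0.05. Most filled points lie right of 0, and Cxcl12 lies left of 0 in all 4 comparisons; Ccl7 and Cxcl2 had no count in any ND-fed library, so that their fitted positions depend on the prior count, as do those of Ccl3 in WT males and Ccr1 in Cyp2b-null males.

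The ligands of CCR2 were near or at 0 on ND and rose on CDAHFD. Ccl2, the main monocyte attractant (chr11:82035577-82037452 on GRCm38.p6), was 0.2, 0.78, 1.01 and 0.519 CPM in ND-fed WT females against 6, 7.96, 5.51 and 10.4 CPM in CDAHFD-fed WT females. In Cyp2b-null females Ccl2 was 0.304, 0.601, 0.389 and 1.02 CPM on ND and 13.9, 6.58, 9.51 and 8.58 CPM on CDAHFD. The groups did not overlap in females of either genotype. In males Ccl2 was 0, 0.325, 1.08 and 0.215 CPM in ND-fed WT, 4.29, 6.94, 4.82 and 6.44 in CDAHFD-fed WT, 0.437, 0, 1.04 and 0.436 in ND-fed Cyp2b-null and 4.44, 6.34, 5.06 and 3.02 CPM in CDAHFD-fed Cyp2b-null mice, again without overlap between diets. The log2 fold changes of Ccl2 were 3.69 ± 0.43 (SE, n = 4 per group) in WT females (adjusted p = 1.83e-06, edgeR quasi-likelihood test) and 3.82 ± 0.40 in Cyp2b-null females (adjusted p = 4.36e-07). In males they were 3.57 ± 0.53 in WT (adjusted p = 1.94e-05) and 3.28 ± 0.53 in Cyp2b-null mice (adjusted p = 4.57e-05).

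Ccl7, a second CCR2 ligand that lies next to Ccl2 (chr11:82045712-82047525), had 0 counts in all 16 ND-fed libraries. On CDAHFD it was 2.22, 0.724, 1.43 and 1.28 CPM in WT females, 1.81, 1.64, 2.15 and 1.37 in Cyp2b-null females, 1.31, 0.817, 0.344 and 0.522 in WT males and 1.43, 1.33, 1.06 and 0.201 CPM in Cyp2b-null males. Every CDAHFD-fed library thus held Ccl7 reads and no ND-fed library did. Taking 3 counts over the ND-fed group as the floor, Ccl7 was at least 7.68-fold higher in WT females, 9.46-fold in Cyp2b-null females, 5.44-fold in WT males and 8.3-fold in Cyp2b-null males, with adjusted p from 0.00028 to 0.00573. The other CCR2 ligands, Ccl8 and Ccl12, did not reach 1 CPM in any library.

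Ccr2, the receptor that marks inflammatory monocytes, rose with its ligands. It was 1.4, 2.34, 1.35 and 0.346 CPM in ND-fed WT females and 13.3, 12.8, 13.5 and 20.3 CPM in CDAHFD-fed WT females. In Cyp2b-null females Ccr2 was 0.912, 1.4, 0.778 and 2.21 CPM on ND and 15.5, 12.8, 8.97 and 13.4 CPM on CDAHFD. All CDAHFD-fed females lay above all ND-fed females of their genotype. Male Ccr2 values were 0.362, 0.812, 0.405 and 0.644 CPM in ND-fed WT, 9.88, 12.9, 13.3 and 18.5 in CDAHFD-fed WT, 1.75, 1.79, 1.24 and 0.436 in ND-fed Cyp2b-null and 14.4, 10.9, 17.1 and 12.7 CPM in CDAHFD-fed Cyp2b-null mice, with no overlap between diets. The log2 fold changes were 3.63 ± 0.35 and 3.09 ± 0.34 in WT and Cyp2b-null females and 4.59 ± 0.35 and 3.33 ± 0.30 in WT and Cyp2b-null males, with adjusted p of 8.64e-07 or less in each.

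The ligands of CCR1 and of related receptors, which attract monocytes, macrophages and lymphocytes, form a run of 5 genes on chromosome 11 and were all tested in both sexes. Of the 5, 4 were called higher in WT females and all 5 in each of the other 3 diet comparisons. Of all genes, 12.9%, 15.6%, 17.5% and 19.7% were called higher in WT and Cyp2b-null females and WT and Cyp2b-null males. Ccl3 and Ccl4 in both sexes, and Ccl5 in males, entered the tests through the CDAHFD-fed libraries, so that the count describes these genes only. Ccl3 (macrophage inflammatory protein 1 alpha) was 0, 0.39, 0 and 0.346 CPM in ND-fed WT females against 0.445, 0.724, 2.25 and 1.6 CPM in CDAHFD-fed WT females, and 0.304, 0, 0.778 and 0.17 against 4.9, 3.95, 3.41 and 1.24 CPM in Cyp2b-null females. In males Ccl3 was 0 in all 4 ND-fed WT libraries, 0.746, 2.25, 1.61 and 1.22 CPM in CDAHFD-fed WT, 0, 0, 0.207 and 0 CPM in ND-fed Cyp2b-null and 0.634, 0.92, 1.8 and 1.81 CPM in CDAHFD-fed Cyp2b-null mice. The diets did not overlap in any of the 4 pairs of groups. Ccl3 was at least 11.5-fold higher on CDAHFD in WT males (adjusted p = 0.000199), and its log2 fold change was 3.60 ± 0.73 in Cyp2b-null females (adjusted p = 0.000832). In Cyp2b-null males the ratio of CDAHFD to ND was 30.4 (exact 95% counting interval 5.18 to 1228), with an adjusted p of 0.000752. In WT females the ratio was 7.14 (exact 95% counting interval 2.19 to 36.8) with an adjusted p of 0.0314, and this call was lost when any 1 of 4 single libraries was left out (ND-fed replicates 1 and 3 and CDAHFD-fed replicates 3 and 4), with adjusted p from 0.0712 to 0.104 in those fits.

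Ccl4 (macrophage inflammatory protein 1 beta) followed the same course. It was 0.2, 0, 0 and 0 CPM in ND-fed WT females against 2.44, 2.89, 2.65 and 4 CPM in CDAHFD-fed WT females, and 0.304, 0, 0.778 and 0.51 against 4.9, 2.96, 4.31 and 3.23 CPM in Cyp2b-null females. In males Ccl4 was 0, 0, 0.27 and 0 CPM in ND-fed WT, 0.559, 2.86, 1.95 and 3.66 in CDAHFD-fed WT, 0.219, 0, 0 and 0 in ND-fed Cyp2b-null and 0.951, 1.64, 2.61 and 1.81 CPM in CDAHFD-fed Cyp2b-null mice. No ND-fed library reached the lowest CDAHFD-fed library of its genotype and sex. The ratios of CDAHFD to ND were 50.2 (exact 95% counting interval 8.68 to 2016) in WT females, 26.4 (exact 95% counting interval 6.97 to 224) in WT males and 21.8 (exact 95% counting interval 5.78 to 184) in Cyp2b-null males, and these intervals cover counting error only. The log2 fold change in Cyp2b-null females was 3.30 ± 0.52, and the adjusted p was 0.000577 or less in all 4 comparisons. The annotated spans of Ccl3 (chr11:83647843-83649378) and Ccl4 (chr11:83648624-83664683) overlap in RefSeq, and the strand setting of the counting is not given, so that reads from the shared stretch cannot be told apart.

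Ccl6, a macrophage chemokine of rodents, was 8.81, 12.5, 7.1 and 8.13 CPM in ND-fed WT females and 31.6, 35.4, 25.7 and 40.5 CPM in CDAHFD-fed WT females. In Cyp2b-null females it was 8.2, 11.2, 6.61 and 13.1 CPM on ND and 41.8, 32.7, 40.5 and 29.5 CPM on CDAHFD. In males Ccl6 was 3.44, 2.27, 6.21 and 1.72 CPM in ND-fed WT, 19.4, 36.7, 42.6 and 31.2 in CDAHFD-fed WT, 2.51, 5.15, 3.53 and 2.83 in ND-fed Cyp2b-null and 37.2, 29, 48 and 38.3 CPM in CDAHFD-fed Cyp2b-null mice. Levels on ND were lower in males than in females without overlap between the sexes, at most 6.21 CPM in males and at least 6.61 CPM in females. On CDAHFD the sexes overlapped. Library sizes were scaled apart in each sex, and this narrow gap was not tested. The log2 fold change on CDAHFD was 1.89 ± 0.21 in WT females (adjusted p = 1.46e-06) and 1.82 ± 0.21 in Cyp2b-null females (adjusted p = 1.42e-06). It was 3.19 ± 0.30 in WT males (adjusted p = 6.26e-08) and 3.49 ± 0.31 in Cyp2b-null males (adjusted p = 1.63e-08).

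Ccl5, a T cell and monocyte attractant, rose from a mean of 2.1 ± 1.03 to 5.59 ± 1.49 CPM (SD, n = 4) in WT females and from 1.14 ± 0.549 to 8.28 ± 3.27 CPM in Cyp2b-null females. Male means of Ccl5 rose from 0.499 ± 0.351 to 2.31 ± 1.15 CPM in WT and from 0.573 ± 0.222 to 3.69 ± 1.92 CPM in Cyp2b-null mice. Ccl9, a CCR1 ligand of mice, had higher CPM throughout and smaller log2 fold changes. Its means were 96.4 ± 23.3 CPM on ND and 124 ± 16 CPM on CDAHFD in WT females, where it was not called (adjusted p = 0.0952). Its log2 fold change was 0.73 ± 0.15 in Cyp2b-null females, 0.37 ± 0.13 in WT males and 0.90 ± 0.13 in Cyp2b-null males, with adjusted p of 0.00118, 0.0337 and 1.05e-05. The call in WT males was lost when any of 5 single libraries was left out (ND-fed replicates 1, 3 and 4, CDAHFD-fed replicates 2 and 3; adjusted p 0.053 to 0.131), and Ccl9 passed in WT females without the ND-fed replicate 3 (0.0355). Ccl5 missed the threshold in WT females without the ND-fed replicate 4 (adjusted p = 0.0505).

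The receptor Ccr1, found on monocytes, macrophages and neutrophils, rose with these ligands. It was at group means of 0.169 and 1.64 CPM in ND-fed and CDAHFD-fed WT females and of 0.0501 and 2.31 CPM in Cyp2b-null females. In WT males Ccr1 rose from 0.169 to 2.06 CPM, and in Cyp2b-null males from 0 counts in all 4 ND-fed libraries to 3 CPM, which is at least 21.7-fold. Ccr1 was called in all 4 comparisons, with adjusted p from 2.33e-05 to 0.00469.

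Cx3cr1, the fractalkine receptor of monocytes and monocyte-derived macrophages, gave the smallest adjusted p of the members in Cyp2b-null males. In females Cx3cr1 was 0.601, 0.39, 1.69 and 0.346 CPM in ND-fed WT, 10, 14.2, 19 and 25.4 in CDAHFD-fed WT, 0.304, 0.802, 0.389 and 0.851 in ND-fed Cyp2b-null and 10.8, 15.1, 8.07 and 8.09 CPM in CDAHFD-fed Cyp2b-null mice. In males the same groups gave 1.09, 0.975, 0 and 1.07, then 15.9, 13.1, 22.4 and 20.9, then 0.109, 0.224, 1.04 and 0.218, and 16, 21.9, 28.6 and 16.1 CPM. The lowest CDAHFD-fed library lay several-fold above the highest ND-fed library in every pair of groups. The log2 fold changes were 4.61 ± 0.42 and 3.96 ± 0.44 in WT and Cyp2b-null females (adjusted p = 9.17e-08 and 9.87e-07) and 4.61 ± 0.42 and 5.81 ± 0.47 in WT and Cyp2b-null males (adjusted p = 3.89e-08 and 5.54e-09). Its only ligand, Cx3cl1 (fractalkine, a membrane-bound chemokine), had log2 fold changes of 1.78 ± 0.56, 1.62 ± 0.61, 2.17 ± 0.61 and 1.95 ± 0.59 in the same order of groups. The Cx3cl1 call was closest to the limit in Cyp2b-null females (adjusted p = 0.0499), and the diets overlapped for it in all pairs of groups except Cyp2b-null males. It was lost when any of 4 single libraries was left out in WT females (ND-fed replicates 1 and 4, CDAHFD-fed replicates 3 and 4; adjusted p 0.0616 to 0.111) and any of 6 in Cyp2b-null females (all but ND-fed replicate 3 and CDAHFD-fed replicate 1; adjusted p 0.0769 to 0.154), and in WT males without the CDAHFD-fed replicate 3 (adjusted p = 0.0521).

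**Figure D2:**
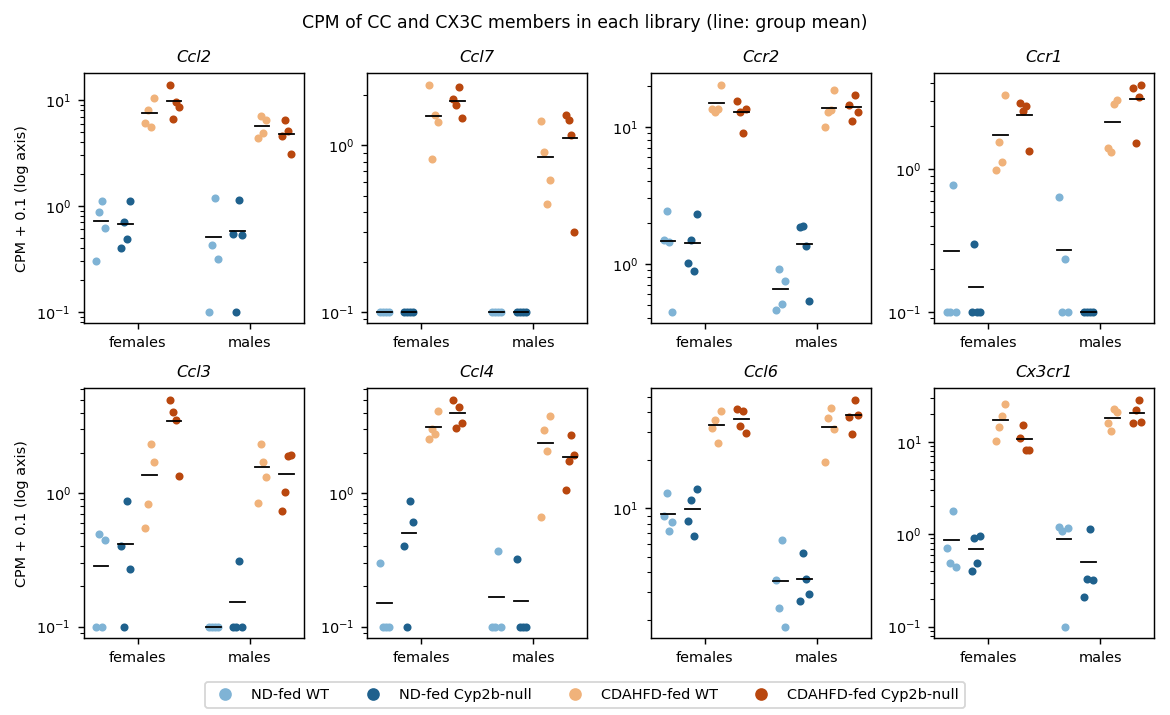
CPM plus 0.1 on a log axis of 8 CC and CX3C members in each library, with females and males side by side, blue for ND, orange for CDAHFD, the darker shade for Cyp2b-null and a line at each group mean. For each gene the CDAHFD-fed libraries sit above the ND-fed ones of their genotype and sex, and Ccl6 on ND sits lower in males than in females.

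Ccr7, the receptor with which dendritic cells and T cells reach lymph nodes, was called higher in 3 of the 4 diet comparisons. In females Ccr7 was 1, 0, 0.676 and 0 CPM in ND-fed WT, 1.33, 1.21, 2.04 and 1.12 in CDAHFD-fed WT, 0.304, 1, 0 and 0.851 in ND-fed Cyp2b-null and 2.32, 1.97, 3.77 and 2.36 CPM in CDAHFD-fed Cyp2b-null mice. In males the values were 0, 0.487, 0.135 and 0.43 CPM in ND-fed WT, 0.746, 1.02, 1.95 and 1.39 in CDAHFD-fed WT, 0.219, 1.12, 1.04 and 0 in ND-fed Cyp2b-null and 2.06, 1.02, 2.86 and 1.01 CPM in CDAHFD-fed Cyp2b-null mice. The diets overlapped only in Cyp2b-null males. The log2 fold change was 1.99 ± 0.59 in Cyp2b-null females (adjusted p = 0.0144), 2.29 ± 0.76 in WT males (adjusted p = 0.0256) and 1.68 ± 0.65 in Cyp2b-null males (adjusted p = 0.0488). In WT females it was 1.66 ± 0.70, which did not pass (adjusted p = 0.0942), and passed at 0.0297 without the ND-fed replicate 1. The call was lost when any of 3 single libraries was left out in WT males (ND-fed replicates 1 and 3, CDAHFD-fed replicate 3; adjusted p 0.0685 to 0.0939) and any of 4 in Cyp2b-null males (ND-fed replicates 1 and 4, CDAHFD-fed replicates 1 and 3; adjusted p 0.0822 to 0.194). Its ligand Ccl19 had 0 counts in all libraries, and Ccl21a did not reach 1 CPM in any; Ccl19, Ccl21 and Ccl27 have near-identical copies and pseudogenes, among which reads may have been split or dropped.

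Among the neutrophil attractants that signal through CXCR2, Cxcl1 and Cxcl2 were tested and both were called higher in all 4 comparisons, while Cxcl3, Cxcl5 and Cxcl15 did not reach 1 CPM in any library. Cxcl2 had 0 counts in all 16 ND-fed libraries. On CDAHFD it was 0.889, 2.17, 1.02 and 1.28 CPM in WT females, 2.58, 1.15, 0.179 and 1.87 in Cyp2b-null females, 0.186, 1.02, 1.72 and 2.09 in WT males and 1.27, 0.818, 1.06 and 2.01 CPM in Cyp2b-null males. All CDAHFD-fed libraries held Cxcl2 reads. The rise was at least 7.14-fold in WT females, 7.81-fold in Cyp2b-null females, 10.6-fold in WT males and 8.99-fold in Cyp2b-null males, with adjusted p from 0.00115 to 0.00517. Cxcl1 rose from 3.31 ± 2.62 to 17.6 ± 7.24 CPM in WT females and from 1.04 ± 0.293 to 6.6 ± 1.43 CPM in Cyp2b-null males, with log2 fold changes between 1.58 (WT males) and 2.58 (Cyp2b-null males). Their receptor Cxcr2, a neutrophil marker, stayed below the limit for a test within a sex. It had 0 counts in all 8 ND-fed female libraries against 17 counts over CDAHFD-fed WT females and 16 over CDAHFD-fed Cyp2b-null females, at least 4.67-fold and 3.79-fold higher.

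Cxcl9 and Cxcl10 encode interferon-induced ligands of CXCR3 that attract activated T cells and NK cells. They lie side by side on chromosome 5 with Cxcl11, which RefSeq annotates as a transcribed pseudogene in this genome. Of the 3, Cxcl10 was called higher in all 4 diet comparisons, Cxcl9 in 1 and Cxcl11 in none. Cxcl10 was 4.61, 3.51, 4.39 and 2.94 CPM in ND-fed WT females and 24.2, 12.3, 13.3 and 21 CPM in CDAHFD-fed WT females, and 2.73, 3.01, 1.94 and 4.25 against 21.9, 14.6, 16 and 22.8 CPM in Cyp2b-null females. In males Cxcl10 was 0.724, 0.975, 2.03 and 0.215 CPM in ND-fed WT, 6.71, 11, 8.26 and 8.71 in CDAHFD-fed WT, 2.3, 2.01, 2.7 and 1.31 in ND-fed Cyp2b-null and 10.3, 9, 7.26 and 6.04 CPM in CDAHFD-fed Cyp2b-null mice. Diets never overlapped for Cxcl10. Its log2 fold changes were 2.20 ± 0.27 and 2.57 ± 0.28 in WT and Cyp2b-null females and 3.0 ± 0.36 and 1.95 ± 0.33 in WT and Cyp2b-null males, with adjusted p of 6.66e-05 or less.

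Cxcl9 was 9.21, 28.9, 28 and 12.8 CPM in ND-fed WT females, 26.4, 31.6, 20.8 and 31.3 in CDAHFD-fed WT females, 10.3, 10.4, 8.94 and 18.7 in ND-fed Cyp2b-null females and 35.4, 27, 35.7 and 33.1 CPM in CDAHFD-fed Cyp2b-null females. In males it was 6.7, 3.41, 13.4 and 9.45 CPM in ND-fed WT, 9.14, 18.6, 8.61 and 16.7 in CDAHFD-fed WT, 16, 11.2, 15.1 and 9.59 in ND-fed Cyp2b-null and 17, 11.6, 12.3 and 10.3 CPM in CDAHFD-fed Cyp2b-null mice. The diets separated only in Cyp2b-null females, where the log2 fold change was 1.39 ± 0.29 (adjusted p = 0.000951). It was 0.55 ± 0.28 in WT females (adjusted p = 0.181), 0.66 ± 0.32 in WT males (adjusted p = 0.122) and -0.04 ± 0.30 in Cyp2b-null males (adjusted p = 0.935). Without the ND-fed WT male replicate 3 the adjusted p in WT males was 0.0219. With scaling by library size alone Cxcl9 was called higher in WT females (0.89, adjusted p = 0.0177) and WT males (1.05, adjusted p = 0.014), as it was with no low-count filter (adjusted p = 0.0475 and 0.0201). Cxcl11 could be tested in females alone and was not called in either genotype, with log2 fold changes of 0.30 ± 0.54 in WT and 0.84 ± 0.57 in Cyp2b-null mice.

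Cxcr3, the receptor of this trio, stayed near 1 CPM. In females it was 0.801, 0, 1.69 and 0.346 CPM in ND-fed WT, 1.33, 0.724, 0.612 and 0.8 in CDAHFD-fed WT, 0.608, 0.401, 0 and 0.51 in ND-fed Cyp2b-null and 1.03, 1.32, 1.79 and 0.871 CPM in CDAHFD-fed Cyp2b-null mice. In males it was 0.543, 0.487, 0.135 and 0 CPM in ND-fed WT, 0, 1.02, 0.918 and 1.39 in CDAHFD-fed WT, 0.219, 1.12, 0.415 and 0.436 in ND-fed Cyp2b-null and 1.11, 0.102, 0.653 and 1.01 CPM in CDAHFD-fed Cyp2b-null mice. Only the Cyp2b-null females were free of overlap between diets, with a log2 fold change of 1.53 ± 0.65 and an adjusted p of 0.08. The log2 fold changes of the other 3 comparisons lay between 0.32 and 1.46, with adjusted p from 0.205 to 0.776.

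The start regions of these CXC genes are shown because Cxcl1, Cxcl2 and Cxcl10 were called higher in all 4 diet comparisons, Cxcl9 in 1 and Cxcl12 lower in all 4. Each sequence is the RefSeq window on GRCm38.p6 from 250 bases before to 50 bases from the start site, 5′ to 3′ on the strand of the gene. Capitals mark matches, on either strand, to the NF-kB consensus, to the interferon-stimulated response element (ISRE, a pair of TTTC with any 2 bases between them) or to the AP-1 element (TGANTCA), and the NF-kB matches on opposite strands of Cxcl1 and of Cxcl2 overlap each other. The windows are chr5:90890995-90891294, plus strand for Cxcl1; chr5:90903649-90903948, plus strand for Cxcl2; chr5:92348840-92349139, minus strand for Cxcl10; chr5:92328030-92328329, minus strand for Cxcl9; and chr6:117168285-117168584, plus strand for Cxcl12.
Cxcl1: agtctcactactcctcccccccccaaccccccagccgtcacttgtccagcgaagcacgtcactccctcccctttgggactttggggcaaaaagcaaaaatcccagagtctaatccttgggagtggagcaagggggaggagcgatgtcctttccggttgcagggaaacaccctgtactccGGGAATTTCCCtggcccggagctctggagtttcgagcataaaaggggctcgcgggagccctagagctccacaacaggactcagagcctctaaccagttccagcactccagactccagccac
Cxcl2: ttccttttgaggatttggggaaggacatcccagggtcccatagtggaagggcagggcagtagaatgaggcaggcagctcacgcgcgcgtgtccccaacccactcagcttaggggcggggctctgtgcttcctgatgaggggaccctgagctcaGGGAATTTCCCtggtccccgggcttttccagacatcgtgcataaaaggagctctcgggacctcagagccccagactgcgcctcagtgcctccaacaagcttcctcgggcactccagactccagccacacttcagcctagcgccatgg
Cxcl10: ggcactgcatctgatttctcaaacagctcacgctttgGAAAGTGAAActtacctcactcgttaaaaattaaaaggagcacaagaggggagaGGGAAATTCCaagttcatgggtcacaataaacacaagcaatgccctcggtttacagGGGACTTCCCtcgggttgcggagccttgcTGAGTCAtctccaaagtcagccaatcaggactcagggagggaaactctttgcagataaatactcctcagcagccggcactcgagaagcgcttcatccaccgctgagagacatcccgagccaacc
Cxcl9: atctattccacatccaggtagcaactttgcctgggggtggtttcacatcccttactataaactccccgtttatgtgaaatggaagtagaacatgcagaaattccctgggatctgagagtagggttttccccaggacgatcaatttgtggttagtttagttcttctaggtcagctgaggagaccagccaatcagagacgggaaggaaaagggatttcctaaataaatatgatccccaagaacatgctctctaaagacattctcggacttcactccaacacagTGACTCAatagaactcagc
Cxcl12: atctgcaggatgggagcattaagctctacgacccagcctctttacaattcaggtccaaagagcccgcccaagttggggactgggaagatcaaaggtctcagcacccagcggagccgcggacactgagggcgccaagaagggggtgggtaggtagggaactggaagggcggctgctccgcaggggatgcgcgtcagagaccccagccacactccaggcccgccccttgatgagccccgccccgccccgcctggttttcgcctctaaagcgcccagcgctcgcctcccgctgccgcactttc
The Cxcl1 and Cxcl2 windows each held 2 NF-kB matches, the Cxcl10 window 2 NF-kB matches, 1 ISRE and 1 AP-1 match, the Cxcl9 window 1 AP-1 match after the start site, and the Cxcl12 window none. Of all 32851 windows, 4.51% held an NF-kB match, 3.44% an ISRE match and 7.81% an AP-1 match. Windows were held for 42 members (49 windows), of which 18.4% held an NF-kB match, 6.12% an ISRE match and 20.4% an AP-1 match. Cxcl14, also called higher in all 4 comparisons, had 1 ISRE match and no NF-kB match. The windows of Ccl3, Ccl6, Ccl22, Ccr1, Ccr2, Cx3cl1, Cx3cr1 and Cxcr4, likewise called higher in all 4, held no match. No window was held for Ccl2, Ccl4, Ccl5, Ccl7 and Cxcl16, also called higher in all 4. The shares count each window singly, and the near-identical Ccl27a and Ccl27b have several each, some with an AP-1 match. NF-kB matches also lay in windows of Cxcl3, Ccl20, Ccr3 and Ccr6, not tested within a sex, and of Ccl9 and Ccl27a. A match is a run of letters and not a measured binding site, and these shares were not tested.

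Cxcl12, a homeostatic chemokine made by stromal, endothelial and other resident cells that holds leukocytes and progenitors in place through CXCR4, was the member with the highest level per length in ND-fed mice and fell on CDAHFD. In females Cxcl12 was 438, 408, 396 and 375 CPM in ND-fed WT, 304, 234, 316 and 204 in CDAHFD-fed WT, 472, 362, 478 and 356 in ND-fed Cyp2b-null and 238, 262, 209 and 209 CPM in CDAHFD-fed Cyp2b-null mice. In males it was 299, 291, 322 and 359.6 CPM in ND-fed WT, 213, 178, 191 and 206 in CDAHFD-fed WT, 299, 311, 328 and 347 in ND-fed Cyp2b-null and 219, 155, 198 and 232 CPM in CDAHFD-fed Cyp2b-null mice. No CDAHFD-fed library reached the lowest ND-fed library of its genotype and sex. The log2 fold changes were -0.61 ± 0.15 and -0.86 ± 0.15 in WT and Cyp2b-null females (adjusted p = 0.00491 and 0.000216) and -0.69 ± 0.12 and -0.68 ± 0.12 in WT and Cyp2b-null males (adjusted p = 0.000183 and 0.000185). With scaling by library size alone, which shifted the median of all genes by 0.26 to 0.40 on the log2 scale, Cxcl12 stayed lower in all 4 comparisons, by -0.29 in WT females and -0.30 in WT males, and lost its call in those 2 (adjusted p = 0.156 and 0.0581). The endothelial marker list summed to 172 to 212 CPM in ND-fed and 137 to 189.8 CPM in CDAHFD-fed WT females and to 161 to 226 against 143 to 161 CPM in Cyp2b-null females. In males it summed to 114 to 179 against 108 to 177 CPM in WT and 111 to 132 against 112 to 210.4 CPM in Cyp2b-null mice. The diets overlapped for this sum in all pairs of groups except Cyp2b-null females. Of the lists of other resident cells, the stellate cell sum was higher and the hepatocyte sum lower on CDAHFD, without overlap in all 4 pairs. The part of these cells in the change of Cxcl12 was not tested.

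Cxcr4, the receptor of CXCL12 on most leukocytes, moved in the opposite direction. It was 1.4, 1.95, 1.35 and 0.519 CPM in ND-fed WT females, 2.44, 3.86, 4.9 and 5.76 in CDAHFD-fed WT females, 2.43, 1.2, 1.17 and 0.17 in ND-fed Cyp2b-null females and 3.36, 5.43, 3.77 and 5.35 CPM in CDAHFD-fed Cyp2b-null females. In males Cxcr4 was 0.362, 0.325, 0 and 1.07 CPM in ND-fed WT, 2.61, 2.25, 5.28 and 6.1 in CDAHFD-fed WT, 0.109, 0, 0.415 and 0.436 in ND-fed Cyp2b-null and 5.23, 5.22, 9.3 and 8.86 CPM in CDAHFD-fed Cyp2b-null mice. The diets did not overlap in any pair of groups. Log2 fold changes were 1.82 ± 0.47 and 2.0 ± 0.46 in WT and Cyp2b-null females and 3.35 ± 0.58 and 4.91 ± 0.61 in WT and Cyp2b-null males (adjusted p from 1.72e-06 to 0.00667). Ackr3, the scavenging receptor of CXCL12, was called higher in WT males (2.67 ± 0.73, adjusted p = 0.00784) and in no other comparison, with 1.59 ± 0.64 in WT females (adjusted p = 0.0833).

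Cxcl13, the B cell follicle chemokine that acts on CXCR5, had the steepest fall of the members in females, where it was called in either genotype, and was not called in males. It was 8.81, 7.8, 1.35 and 3.98 CPM in ND-fed WT females, 0.222, 0, 0 and 0.16 in CDAHFD-fed WT females, 3.04, 2.41, 2.72 and 3.57 in ND-fed Cyp2b-null females and 0, 0.493, 0 and 0.373 CPM in CDAHFD-fed Cyp2b-null females. Every ND-fed female lay above every CDAHFD-fed female. In males it was 1.81, 0, 0.945 and 0.43 CPM in ND-fed WT, 0.373, 0, 0.344 and 0 in CDAHFD-fed WT, 1.31, 0.671, 0.622 and 1.31 in ND-fed Cyp2b-null and 0.951, 0.205, 0.245 and 0 CPM in CDAHFD-fed Cyp2b-null mice, with overlap in either genotype. The CDAHFD to ND ratio in WT females was 0.0181 (exact 95% counting interval 0.00216 to 0.0673), with an adjusted p of 1.33e-05, and the log2 fold change in Cyp2b-null females was -3.43 ± 0.67 (adjusted p = 0.00055). The male log2 fold changes were -1.91 ± 0.95 in WT and -1.52 ± 0.81 in Cyp2b-null mice (adjusted p = 0.133 and 0.15), and without the ND-fed WT male replicate 2 the adjusted p in WT males was 0.0458. The difference of the diet effect between sexes was not called for Cxcl13 in WT (adjusted p = 0.389) or Cyp2b-null mice (adjusted p = 0.387). Cxcr5 was tested in females and not called, and the B cell marker list summed to 1.9 to 6.21 CPM in ND-fed and 2.65 to 6.89 CPM in CDAHFD-fed WT females, without a called gene.

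**Figure D3:**
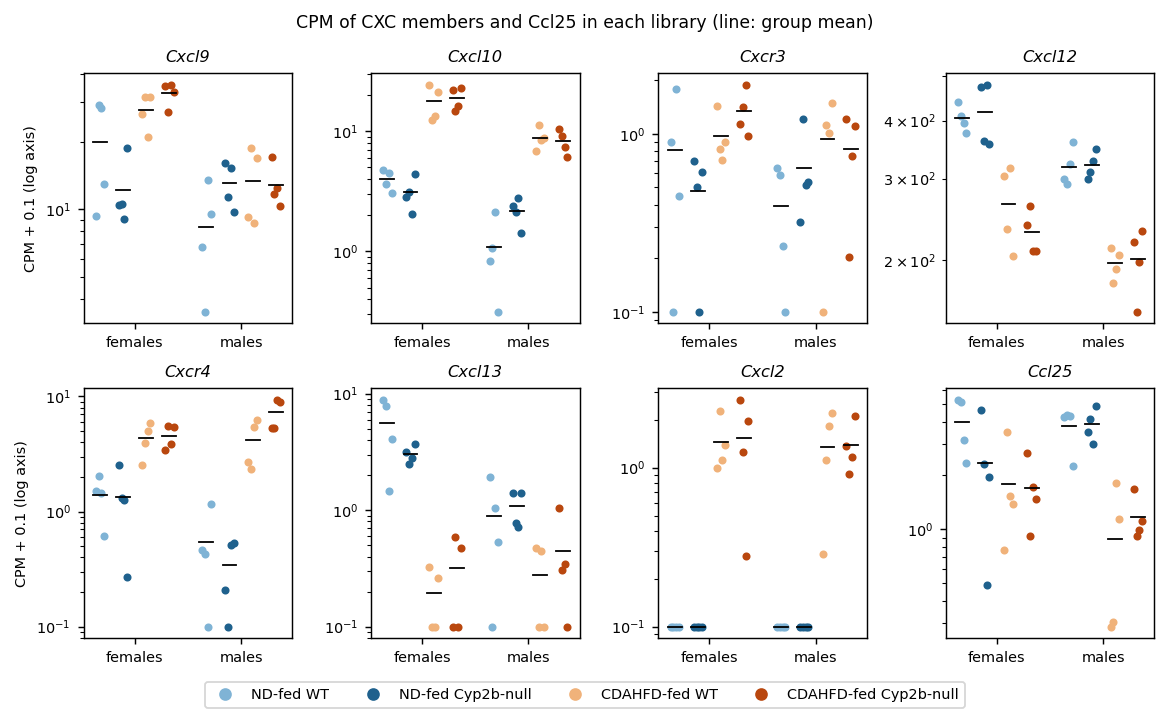
CPM plus 0.1 on log axes of 7 CXC members and Ccl25 in each library, grouped by sex, with blue for ND, orange for CDAHFD, the darker shade for Cyp2b-null and a line at each group mean. Cxcl10, Cxcr4 and Cxcl2 sit higher on CDAHFD in every pair of groups and Cxcl12 lower, whereas Cxcl9 separates by diet only in Cyp2b-null females and Cxcr3 overlaps elsewhere.

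Of the homing chemokines of gut and skin, Ccl25 and Ccl27a were tested and neither rose. Ccl25, a CCR9 ligand, was 4.16, 4.22, 4.19 and 2.15 CPM in ND-fed WT males, 0.186, 0.204, 1.72 and 1.04 in CDAHFD-fed WT males, 3.39, 4.03, 2.9 and 4.79 in ND-fed Cyp2b-null males and 1.58, 0.818, 0.898 and 1.01 CPM in CDAHFD-fed Cyp2b-null males. In females it was 5.21, 5.07, 3.04 and 2.25 CPM in ND-fed WT, 0.667, 3.38, 1.43 and 1.28 in CDAHFD-fed WT, 4.56, 2.2, 0.389 and 1.87 in ND-fed Cyp2b-null and 2.58, 0.822, 1.61 and 1.37 CPM in CDAHFD-fed Cyp2b-null mice. The diets separated in males and overlapped in females. Ccl25 fell in WT males (-2.06 ± 0.46 on the log2 scale, adjusted p = 0.00148) and Cyp2b-null males (-1.82 ± 0.44, adjusted p = 0.00233). In WT females its log2 fold change was -1.21 ± 0.50 (adjusted p = 0.091, and 0.0286 without the CDAHFD-fed replicate 2), and in Cyp2b-null females it was -0.57 ± 0.52 (adjusted p = 0.444). The difference between the sexes was not called (adjusted p = 0.79 in WT and 0.358 in Cyp2b-null mice).

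Ccl27a, a skin-homing chemokine, was 4.16, 2.44, 2.7 and 3.65 CPM in ND-fed WT males and 1.86, 0.204, 0.689 and 2.44 CPM in CDAHFD-fed WT males. In Cyp2b-null males it was 2.95, 4.48, 2.7 and 3.7 CPM on ND and 3.17, 1.43, 1.55 and 1.41 CPM on CDAHFD. In females it was 6.41, 2.34, 6.76 and 2.59 CPM in ND-fed WT, 2.89, 3.86, 1.63 and 3.68 in CDAHFD-fed WT, 3.95, 4.01, 6.22 and 5.45 in ND-fed Cyp2b-null and 3.1, 3.62, 4.66 and 2.99 CPM in CDAHFD-fed Cyp2b-null mice. The diets overlapped in all 4 pairs of groups. Ccl27a was called lower in WT males only (-1.31 ± 0.46, adjusted p = 0.0333), and lost that call when the ND-fed replicate 1 or 4 or the CDAHFD-fed replicate 2 or 3 was left out (adjusted p 0.0639 to 0.122). In Cyp2b-null males it passed without the CDAHFD-fed replicate 1 (-1.21, adjusted p = 0.0474).

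Other ligands rose in every diet comparison. Cxcl14, a chemokine of epithelia and stroma, rose from means of 2.34 ± 0.692 to 12.3 ± 1.09 CPM in WT females and from 1.15 ± 0.858 to 14 ± 1.63 CPM in Cyp2b-null males, with log2 fold changes from 2.42 to 3.73. Cxcl16, a transmembrane chemokine and scavenger receptor that binds CXCR6, rose by log2 fold changes of 1.06 ± 0.24 in WT females to 2.24 ± 0.30 in Cyp2b-null males. Its receptor Cxcr6 was not called, with log2 fold changes from 0.26 to 1.68 and adjusted p of 0.0617 or more, but passed in WT males without the CDAHFD-fed replicate 1 (0.0177) or 2 (0.0386). Ccl22, a dendritic cell product that attracts regulatory T cells, rose by log2 fold changes from 2.75 to 4.13, and Ccl17, which shares its receptor CCR4, did not reach 1 CPM in any library. Xcr1, a marker of cross-presenting dendritic cells, was called higher in Cyp2b-null females only (1.71 ± 0.59, adjusted p = 0.0333), at group means of 0.535 and 1.79 CPM. That call was lost when any of 5 single libraries was left out (ND-fed replicates 1, 3 and 4, CDAHFD-fed replicates 1 and 4; adjusted p 0.0535 to 0.134) and in DESeq2 (0.0515). In Cyp2b-null males Xcr1 passed without the ND-fed replicate 1 (adjusted p = 0.0435) or the CDAHFD-fed replicate 2 (0.0357).

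Levels can be compared between genes only per length, here as CPM per kilobase of the merged exons of a gene in GENCODE vM21, which understates genes with many rarely used exons. In ND-fed WT females the highest members were Cxcl12 at 49.5 ± 3.23 CPM per kilobase (SD, n = 4) and Ccl9 at 31.6 ± 7.64, followed by Cxcl9 at 6.54 ± 3.38, Ccl6 at 5.09 ± 1.31 and Cxcl13 at 4.77 ± 3. The last 3 did not differ beyond their spread. In CDAHFD-fed WT females Ccl9 stood at 40.7 ± 5.25 CPM per kilobase, Cxcl12 at 32.4 ± 6.62 and Ccl6 at 18.6 ± 3.47, and the first pair was within its spread. ND-fed WT males had the same leaders, with Cxcl12 at 38.9 ± 3.74 and Ccl9 at 25 ± 1.36 CPM per kilobase and all other members under 3. In CDAHFD-fed WT males Ccl9 was at 32.2 ± 4.45, Cxcl12 at 24.1 ± 1.88 and Ccl6 at 18.1 ± 5.51 CPM per kilobase.

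Many members are neighbours in the genome, and neighbours did not all share a level. The run of 6 CC ligands at chr11:82035577-82179812 held 2 tested genes, Ccl2 and Ccl7, both called higher in every diet comparison, and 4 that did not reach the limit (Ccl1, Ccl8, Ccl11 and Ccl12). The next run, at chr11:83525778-83664683, held the 5 genes Ccl3, Ccl4, Ccl5, Ccl6 and Ccl9, all tested. Of the 5 CXC genes at chr5:90759298-90905938, Cxcl1 and Cxcl2 were tested and called. On chromosome 9, of the run at chr9:123767211-123862029 Cxcr6 was called in none, Xcr1 in 1, and Ccr9 was not tested. Neighbours were taken as members less than 100000 bases apart. Of all genes, 12.9%, 15.6%, 17.5% and 19.7% were called higher in WT and Cyp2b-null females and WT and Cyp2b-null males. The runs were not tested as units.

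Genotype made no called difference to any member. In edgeR 0 of 31 members were called between Cyp2b-null and WT females on ND and 0 on CDAHFD, where 0.0809% and 0.0202% of all genes were called, and DESeq2 called 0 as well. In males 0 of 29 were called on ND and 0 on CDAHFD, where 0.0341% and 0.0273% of all genes were called, again with 0 in DESeq2. At an unadjusted p under 0.05 there were 848, 844, 1185 and 515 genes in ND-fed females, CDAHFD-fed females, ND-fed males and CDAHFD-fed males. All genes tested were 14826 in females and 14651 in males. Members among those under 0.05 numbered 1, 3, 3 and 1 in the same order. On CDAHFD in females these were Xcr1 (1.77 ± 0.57), Ccl3 (1.32 ± 0.53) and Cx3cr1 (-0.72 ± 0.27) (adjusted p = 0.864 for each). In males they were Ccr2 (1.28 ± 0.47), Cxcl10 (0.97 ± 0.42) and Cxcl1 (-1.18 ± 0.50) on ND and Ccl9 (0.36 ± 0.13) on CDAHFD, with adjusted p of 0.437 or more.

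The genotype effects are given with ranges of 2 SE on either side. For Ccl2 on CDAHFD the log2 difference of Cyp2b-null against WT mice was 0.33 (-0.20 to 0.87) in females and -0.22 (-0.97 to 0.54) in males. For Ccr2 on CDAHFD it was -0.26 (-0.75 to 0.23) in females and 0.02 (-0.43 to 0.48) in males. Cxcl10 gave 0.08 (-0.36 to 0.53) and -0.08 (-0.64 to 0.47), and Ccr7 gave 0.86 (-0.14 to 1.86) and 0.43 (-0.68 to 1.55). The tightest of these ranges were those of Cxcl12, at -0.20 (-0.51 to 0.10) in females and 0.03 (-0.22 to 0.28) in males. On ND the range of Ccl2 was wide, from -1.08 to 1.48 in females and from -1.43 to 1.59 in males. Members with few counts had wide ranges on CDAHFD too, such as Cxcl13 with -1.17 to 3.42 in females.

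**Figure D4:**
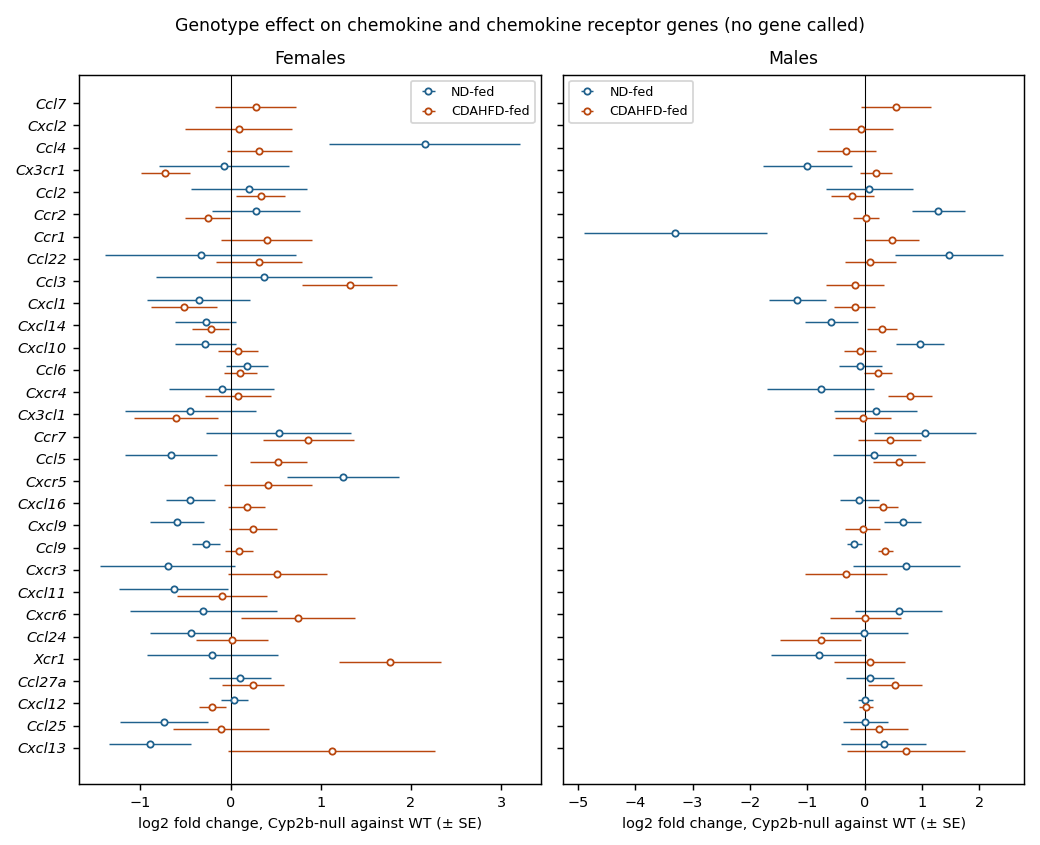
Log2 fold change of Cyp2b-null against WT mice for the members tested except 1 (x axis, ± SE), with females left, males right, ND in blue and CDAHFD in orange; genes with 3 counts or fewer in each of the 2 groups are left out. No point was called, and the widest bars belong to members with few counts, such as Ccl4 and Ccr1 on ND.

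The diet effect itself did not differ between genotypes for any member at an adjusted p under 0.05. In edgeR 0 of 31 members were called in females and 0 of 29 in males, with 0.00674% and 0.00683% of all genes called and 0 members in DESeq2. At an unadjusted p under 0.05 there were 913 of all 14826 genes tested in females and 870 of 14651 in males. Members among them numbered 2 in females and 4 in males. In females these were Cxcl9, whose diet effect was larger in Cyp2b-null mice by 0.84 ± 0.40 on the log2 scale, and Xcr1 (1.97 ± 0.94), each with an adjusted p of 0.78. In males they were Ccl9 (0.54 ± 0.18), Ccr2 (-1.26 ± 0.52), Cxcl10 (-1.05 ± 0.50) and Ccr1, with adjusted p from 0.711 to 0.836.

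Between the sexes, 1 member differed in its diet effect. In WT mice edgeR called 0 of 33 members, with 0.838% of all 15521 genes called, and DESeq2 called 1 (Ccl6). The unadjusted p of edgeR lay under 0.05 for 4 members and for 1535 of all genes. In Cyp2b-null mice edgeR called Ccl6, with 2.82% of all genes called. The diet effect on Ccl6 was larger in males by 1.68 ± 0.39 on the log2 scale (adjusted p = 0.0133), and all 25 alternatives and left-out libraries kept this call. In WT mice the difference for Ccl6 was 1.31 ± 0.39 (adjusted p = 0.129), which passed without the ND-fed WT male replicate 3 (0.0161) or the CDAHFD-fed WT male replicate 1 (0.0312). In Cyp2b-null mice Cxcl9 (-1.42 ± 0.44, adjusted p = 0.0726) and Cxcr4 (2.91 ± 0.89, adjusted p = 0.0653) came next, the first with a smaller and the second with a larger diet effect in males. Both passed without the ND-fed Cyp2b-null female replicate 4 (0.0399 and 0.0272). Cxcl14 passed without the ND-fed Cyp2b-null male replicate 3 (1.87 on the log2 scale, adjusted p = 0.0377).

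Of the cell type marker lists, that of macrophages and monocytes was called higher throughout. The counts of each list stand beside the shares of all genes called for diet. In WT and Cyp2b-null females and WT and Cyp2b-null males these were 12.9%, 15.6%, 17.5% and 19.7% higher and 9.39%, 12.6%, 14% and 16.1% lower. All 6 macrophage and monocyte markers (Adgre1, Cd68, Csf1r, Itgam, Ly6c2 and Lyz2) were called higher in each diet comparison, and resident Kupffer cells also express some of them. Their summed level was 145 to 234 CPM in ND-fed and 548 to 744 CPM in CDAHFD-fed WT females, and 159 to 233 against 559 to 937 CPM in Cyp2b-null females. In males it was 66.6 to 112 against 435 to 914 CPM in WT and 61.7 to 77.4 against 591 to 1114 CPM in Cyp2b-null mice. On ND this sum was lower in males than in females without overlap, as Ccl6 was. The Kupffer cell, stellate cell and hepatocyte sums were likewise lower in ND-fed males without overlap, so that this is not particular to the list. The part of any of these cells in the sex difference of Ccl6 was not tested. The dendritic cell list had 2 of 5 markers called higher in females of either genotype (Itgax and Siglech) and 4 of 5 in males of either genotype. The neutrophil list had 3, 4, 4 and 4 of its 6 markers called higher in WT and Cyp2b-null females and WT and Cyp2b-null males, while Ly6g, a defining marker of neutrophils, was at 0 in all libraries. Its sum was 1.73 to 4.41 CPM in ND-fed and 13.6 to 20.3 CPM in CDAHFD-fed WT females. The part of these cells in the rise of the chemokines was not tested.

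Of 6 T cell markers 0 were called in WT females, Cd8a was called higher in Cyp2b-null mice of both sexes, and Cd4 lower in WT males. Their sum was 2.6 to 3.9 CPM in ND-fed and 2.41 to 7.52 CPM in CDAHFD-fed WT females, 3.5 to 6.3 against 6.25 to 10.9 CPM in Cyp2b-null females, 2.43 to 5.04 against 2.05 to 9.41 CPM in WT males and 3.05 to 4.48 against 3.58 to 11.1 CPM in Cyp2b-null males. Of 5 B cell markers 1 (Cd79b) was called, higher in Cyp2b-null males, and of 6 NK cell markers 2 (Nkg7 and Gzma) were called higher in Cyp2b-null females and in WT males. The NK cell sum was 1.38 to 4.41 against 3.11 to 7.52 CPM in WT females, 2.61 to 5.45 against 4.77 to 10.3 CPM in Cyp2b-null females, 0.905 to 1.29 against 3.36 to 5.23 CPM in WT males and 1.04 to 2.01 against 2.35 to 6.34 CPM in Cyp2b-null males, so that the diets did not overlap in males of either genotype. The Kupffer cell list, of liver-resident macrophages, moved in mixed directions, with 1 marker higher and 2 lower of 5 in WT females, 1 higher and 1 lower in Cyp2b-null females and 3 higher and 1 lower in males of either genotype. Of 5 endothelial markers 1 was called lower in WT females and 2 in Cyp2b-null females, and 1 was called higher in WT males and 3 in Cyp2b-null males, where 9.39% and 12.6% of all genes were called lower and 17.5% and 19.7% higher. Of 5 stellate cell markers 2, 3, 2 and 4 were called higher in the same order as the neutrophil list, where 12.9%, 15.6%, 17.5% and 19.7% of all genes were called higher. Hepatocyte markers were called lower, 5 of 6 in females of either genotype and in WT males and 3 of 6 in Cyp2b-null males, with sums of 129516 to 196553 CPM in ND-fed and 76994 to 102698 CPM in CDAHFD-fed WT females. Of the remaining lists, Cidec of the 3 adipocyte markers was called higher in all 4 comparisons, 1, 2, 1 and 1 of 5 cholangiocyte markers were called higher, Alas2 of the 5 erythroid markers was called higher in females and lower in males, and 0 of 4 pancreas markers were called.

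**Figure D5:**
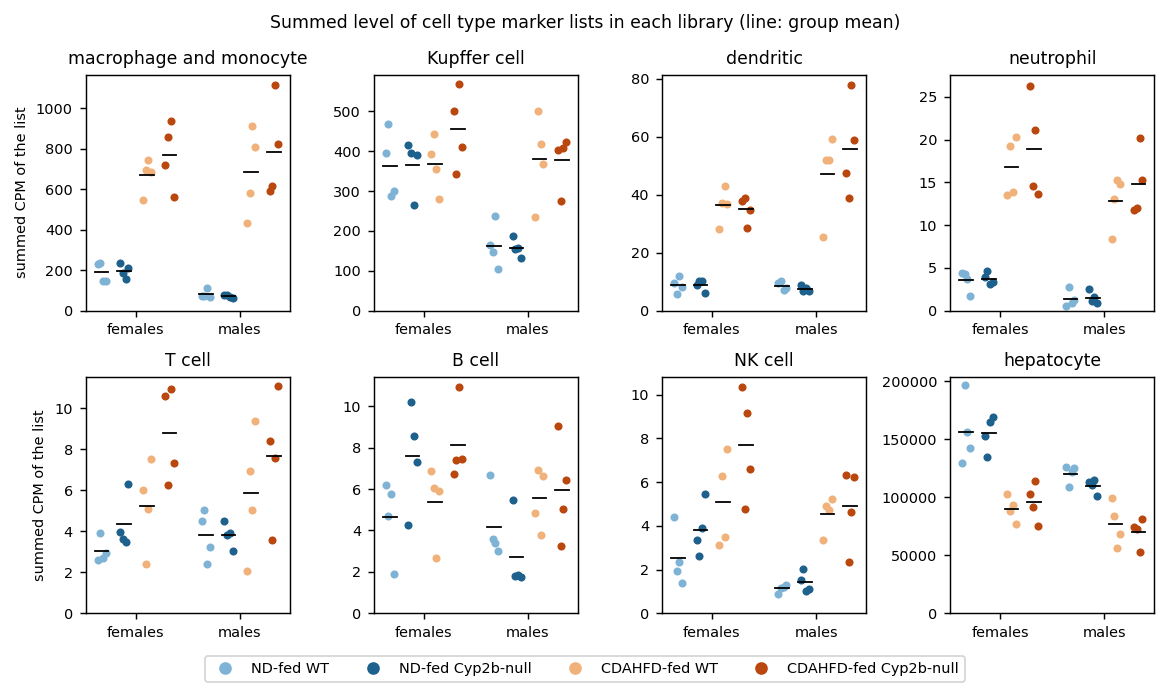
Summed CPM of 8 cell type marker lists in each library, with each panel on its own axis from 0, females and males side by side, blue for ND, orange for CDAHFD and a line at the group mean. The macrophage and monocyte, dendritic and neutrophil sums are higher in every CDAHFD-fed library than in the ND-fed ones of the same sex and genotype, and the hepatocyte sum is lower.

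Of 32 genes that act behind chemokine receptors, 18 were called higher in WT females, 20 higher and 2 lower in Cyp2b-null females, 26 higher in WT males and 24 higher in Cyp2b-null males, where 12.9%, 15.6%, 17.5% and 19.7% of all genes were called higher, with list medians of 0.59, 0.76, 0.83 and 1.01 on the log2 scale. Pik3r5, the regulatory subunit of the phosphoinositide 3-kinase that G protein-coupled receptors switch on, rose by 2.47 ± 0.37 in WT females and 4.31 ± 0.49 in WT males. Dock2, the exchange factor that activates Rac in moving leukocytes, rose by 2.08 ± 0.23 and 3.16 ± 0.36, and Rac2 by 1.28 ± 0.22 and 2.41 ± 0.35. The broadly expressed Rac1 changed by 0.16 ± 0.11 in WT females (adjusted p = 0.355) and 0.38 ± 0.10 in WT males (adjusted p = 0.00713). Rela and Nfkb1, subunits of NF-kB, rose by 0.69 ± 0.15 and 0.47 ± 0.15 in WT females and 0.51 ± 0.13 and 0.77 ± 0.14 in WT males.

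Among 7 tested atypical receptors and regulators of chemokines, 3 were called in females of either genotype, 5 in WT males and 4 in Cyp2b-null males, where 22.3%, 28.3%, 31.5% and 35.8% of all genes were called in WT and Cyp2b-null females and WT and Cyp2b-null males. Ccrl2, a receptor that presents chemerin, rose by 0.90 ± 0.31 in WT females and 2.24 ± 0.39 in Cyp2b-null males. Dpp4, a protease that trims several chemokines including CXCL12, was called lower in all 4 comparisons, with -0.40 ± 0.13 in WT females and -0.44 ± 0.11 in WT males. Ackr4, the scavenger of CCL19, CCL21 and CCL25, was called lower in 3 comparisons, with WT females as the exception (-0.22 ± 0.16, adjusted p = 0.391).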

How the data were processed

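Raw read counts by gene were deposited by the authors as 1 table per sex, of 16 libraries each. Per the labels and the methods of the study, liver RNA was extracted with TRIzol, made into libraries with the NEBNext Ultra RNA kit and sequenced as paired reads of 150 bases. Reads were checked with FastQC, trimmed with Trimmomatic, aligned to GRCm38.p6 with GSNAP and counted with Subread. Versions, the strand setting and the handling of reads that map more than once are not given in the sources used here. All values were checked to be whole numbers, and 0 sample columns were left unused. Among the row names, 27 symbols had turned into dates and 2 names were repeated.

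All 32 libraries entered. Genes with at least 1 CPM in at least 4 libraries of a fit were tested with edgeR 4.0.16 (R 4.3.3, glmQLFit and glmQLFTest, TMM factors) over the 4 groups of a sex, and over all 8 groups for sex differences. The Benjamini-Hochberg adjustment covered every gene of a fit, and called means an adjusted p under 0.05. SE is the log2 fold change divided by the root of F. CPM use TMM library sizes from the separate fit of each sex, so that levels of females and males do not share 1 scaling. Folds against a group at 0 use a floor of 3 counts over the group, and ratios against 1 to 3 counts have exact 95% intervals. Intervals and floors cover counting error only, and p-values measure the spread between the libraries of a group. On counts simulated from these libraries for the diet effect in WT mice, the test found 59% of genes changed 2-fold and 89% of those changed 4-fold in females (14826 genes) and 69% and 86% in males (14651 genes), with 0 wrong signs. It also called 8 unchanged genes in females and 7 in males. The changed genes were drawn from all genes tested, so that these shares need not hold for members near 1 CPM. Genotype effects and interactions were not simulated. The alternatives were DESeq2 1.42.0, other scaling, other filters, a replicate block, fits restricted to the compared groups and fits without single libraries.

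Named with every library are the 5 called members with the largest rise and the 3 with the largest fall in WT mice of each sex, members called for genotype, interaction or sex, and Ccl2, Ccr2, Cxcl9, Cxcl10, Cxcr3, Cxcl12, Cxcr4, Cx3cr1 and Ccr7. The members, lists and tests were chosen with earlier results of these data known. Positions are from RefSeq on GRCm38.p6 (61 members matched), exon lengths from GENCODE vM21 (59 matched). No pairs of libraries within a group agreed within sampling noise. For 1 member and 1 signalling gene, values are not reported here, although counts and medians over lists include them.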

Additional observations from a re-analysis of the deposited data

Results flagged for a closer look

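Single libraries stood apart in 5 of the 100 groups of 4 libraries examined for the members given by library, where chance flags about 1 in 20. The CDAHFD-fed WT female replicate 4 had 20.3 CPM of Ccr2 against 12.8 to 13.5 CPM in the other libraries of its group. The ND-fed Cyp2b-null female replicate 4 had 18.7 CPM of Cxcl9 against 8.94 to 10.4 CPM. The ND-fed WT male replicate 3 had 0 CPM of Cx3cr1 against 0.975 to 1.09 CPM. The ND-fed WT male replicate 4 had 2.15 CPM of Ccl25 against 4.16 to 4.22 CPM, and the CDAHFD-fed Cyp2b-null male replicate 1 had 3.17 CPM of Ccl27a against 1.41 to 1.55 CPM. The diet effect on Ccl6 differed between males and females in Cyp2b-null mice, by 1.68 on the log2 scale.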

How the results depend on the processing

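The number of members called was within 1.5 times the reported number in every diet comparison under all alternatives. It ran from 16 to 23 in WT females, 21 to 25 in Cyp2b-null females, 16 to 24 in WT males and 19 to 23 in Cyp2b-null males, and without single libraries from 17 to 21, 22 to 23, 19 to 24 and 20 to 22. For genotype and its interaction with diet it stayed at 0 in each fit. For the sex difference of the diet effect it was 1 in WT mice with DESeq2 and with no low-count filter (0 to 1 without single libraries). In Cyp2b-null mice it was 3 with DESeq2, with no low-count filter and at an adjusted p under 0.1, and 2 in a fit restricted to the compared groups (1 to 3 without single libraries). No direction of a called member reversed. Replicate numbers did not pair libraries, since deviations of same-numbered libraries correlated by 0.00 on average in females and 0.02 in males. With the replicate block 20, 23, 23 and 21 members were called for diet in WT and Cyp2b-null females and WT and Cyp2b-null males. Ccr7 in Cyp2b-null males (adjusted p = 0.059) and Xcr1 in Cyp2b-null females (0.0511) then missed the threshold. Calls gained under library-size scaling were Cxcl9, Ccl9 and Ccr7 in WT females (adjusted p = 0.0177, 0.00185 and 0.0348), Cxcl9 and Cxcr6 in WT males (0.014 and 0.0182), Cxcr3 in Cyp2b-null females (0.0381) and Xcr1 in Cyp2b-null males (0.0367), and with no low-count filter Cxcl9 in WT mice of both sexes and Ccl25 in WT females (0.0358). Other calls lost were Cxcl12 in WT mice under library-size scaling and Ccl27a in WT males under that scaling (adjusted p = 0.124) and in a fit restricted to the compared groups (0.0736), Xcr1 in Cyp2b-null females in DESeq2 (0.0515) and with no low-count filter (0.0704), and Ccl9 in WT males with no low-count filter (0.0576), and the cause was not tested. Without the 2 libraries that the study's heat maps leave out, 20, 23, 23 and 22 members were called, with Cx3cl1 in Cyp2b-null females lost (0.0769). Members near 1 CPM rest on a few counts per library.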
